A study of Mus musculus with 4 samples.

Results

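The adrenergic receptors are the cell surface receptors for adrenaline and noradrenaline. The 8 genes of this family described here are Adra1a, Adra1b, Adra1d, Adra2a, Adra2b, Adra2c, Adrb1 and Adrb3, out of 54532 genes in the table. They were chosen by family name and with the difference between R and vehicle already known, in particular the difference of Adra1d, so their values in that contrast are given as a description with no test. RNA sequencing of total RNA covered 4 libraries of mouse cells labelled MSCs, from bone marrow that was digested without fractionation and then cultured. The R libraries (n = 2) came from cells treated in culture with R at 0.5 µM (the unit is spelled "um" by the submitters), an agent named by that letter only. The vehicle libraries (n = 2) came from cells given the solvent DMSO. All 4 libraries came from CB6F1 mice, an F1 hybrid laboratory strain, and all titles carry the term aGVHD, so no library without that term serves as a comparison here. No label ties the replicates to separate animals or cultures. The p-values given for other genes therefore measure only the spread between these libraries, which may be technical.

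Adrenergic receptors pass through the membrane in a bundle of helices and signal through heterotrimeric G proteins. The alpha 1 receptors (Adra1a, Adra1b, Adra1d) couple to Gq proteins, which activate phospholipase C and release calcium. The alpha 2 receptors (Adra2a, Adra2b, Adra2c) couple to Gi proteins, which lower cyclic AMP, and the beta receptors (Adrb1, Adrb3) couple to Gs, which raises it. In mouse bone marrow, sympathetic nerve fibres act on stromal cells through the beta 3 receptor, a pathway known for its role in the release of blood stem cells.

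Markers of the labelled mesenchymal cells and of macrophages were both present. Of 18 mesenchymal stromal markers 16 reached a mean of 1 FPKM (fragments per kilobase of gene, scaled to the library's size), led by Col1a1, a collagen chain of connective tissue, at 852 and 795 FPKM in R and 532 and 526 FPKM in vehicle. All 15 macrophage and monocyte markers did so as well, led by the lysozyme gene Lyz2 at 8891 and 7061 FPKM in R and 14569 and 12540 FPKM in vehicle. Of 8 neutrophil and erythroid markers 7 had a mean under 0.1 FPKM. In 54495 genes matched to the annotation, the FPKM values that gave whole reads corresponded to 18140519 and 16570419 reads in R and 16944196 and 17153248 in vehicle. The FPKM values summed to 333130 in R replicate 1 and 287360 in R replicate 2, and to 345709 and 333425 in vehicle.

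Close relatives can share reads, so the coding sequences of the 8 genes were compared first. Over the 28 pairs, the longest run of identical bases was between 10 and 30 bases long. For Adra1d, the receptor with the largest level among the 8, the longest run shared with any other member was 20 bases, found with Adra1a and with Adra1b. The windows around these runs are shown in the coding direction from GENCODE M21 (GRCm38, the C57BL/6J reference), with the shared run in capitals and 24 bases on each side. The windows of Adra1d and Adra1a span coding bases 964 to 1031 in Adra1d and 754 to 821 in Adra1a:
Adra1d: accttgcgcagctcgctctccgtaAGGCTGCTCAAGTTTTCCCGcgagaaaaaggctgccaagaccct
Adra1a: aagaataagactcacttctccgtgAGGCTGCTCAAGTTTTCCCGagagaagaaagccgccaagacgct
The windows of Adra1d and Adra1b span coding bases 1120 to 1187 in Adra1d and 976 to 1043 in Adra1b:
Adra1d: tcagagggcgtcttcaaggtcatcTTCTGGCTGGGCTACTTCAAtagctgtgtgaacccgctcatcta
Adra1b: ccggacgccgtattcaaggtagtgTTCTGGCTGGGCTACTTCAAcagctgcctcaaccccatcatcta
The longest run of all pairs, 30 bases, was between the beta receptors, whose windows span coding bases 877 to 954 in Adrb3 and 949 to 1026 in Adrb1:
Adrb3: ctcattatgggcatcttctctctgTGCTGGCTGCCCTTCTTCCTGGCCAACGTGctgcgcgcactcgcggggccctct
Adrb1: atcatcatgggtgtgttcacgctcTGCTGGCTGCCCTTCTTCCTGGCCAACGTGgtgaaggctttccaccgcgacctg
By construction, any stretch of the reference coding sequences longer than the capitals holds at least 1 base by which the partners differ. The read length is not given in the sources used here.

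Adra1d was higher in R, and its groups did not overlap. Adra1d (ENSMUSG00000027335) lies on the minus strand of chromosome 2, positions 131545850 to 131562283 in GRCm38, and is annotated as 1 transcript of 1899 bases in 2 exons, 1686 bases of it coding. Its level was 26.6 and 25.3 FPKM in R and 10.9 and 9.69 FPKM in vehicle. These values rest on 975 and 869 reads in R and on 366 and 330 reads in vehicle. Both R values stood above both vehicle values, and the replicates of each group lay within 1.31 FPKM of each other. The mean was 25.9 ± 0.925 FPKM in R, against 10.3 ± 0.878 FPKM in vehicle (SD, n = 2 each), a ratio of 2.52. Over the summed reads the ratio was 2.52, with an exact 95% interval of 2.31 to 2.75 that covers counting error only, as do all such intervals here. On the log2(FPKM + 1) scale the difference was 1.25. The groups also stood apart on the TPM scale, at 79.9 and 88.0 TPM in R and 31.6 and 29.0 TPM in vehicle. In bulk libraries, more cells of a type and more RNA per cell cannot be told apart. An antisense gene, Gm14285, shares 147 exonic bases with Adra1d and was at 0.682 and 0.291 FPKM in R and 0.448 and 0.293 FPKM in vehicle. Whether the counting used strand is not given, so reads of these 147 bases cannot be assigned to either gene.

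The other alpha 1 receptors were far lower and their groups overlapped. Adra1b (ENSMUSG00000050541, chromosome 11, positions 43774606 to 43901210) was at 0.460 and 0.474 FPKM in R and 0.520 and 0.264 FPKM in vehicle. Its 30 and 29 reads in R and 31 and 16 reads in vehicle gave a ratio of summed reads of 1.19, with an exact 95% interval of 0.801 to 1.79. Vehicle replicate 2 alone was low, and the 3 other libraries lay close together. Adra1a (ENSMUSG00000045875, chromosome 14, positions 66635251 to 66771168) was at 0.0712 and 0.114 FPKM in R and 0.0844 and 0.0958 FPKM in vehicle. This came from 12 and 18 reads in R and 13 and 15 reads in vehicle, a ratio of 1.02 with an interval of 0.589 to 1.77. Both vehicle values of Adra1a fell between the R values. At this depth a difference of up to about these bounds was not detectable for either gene.

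**Figure D1:**
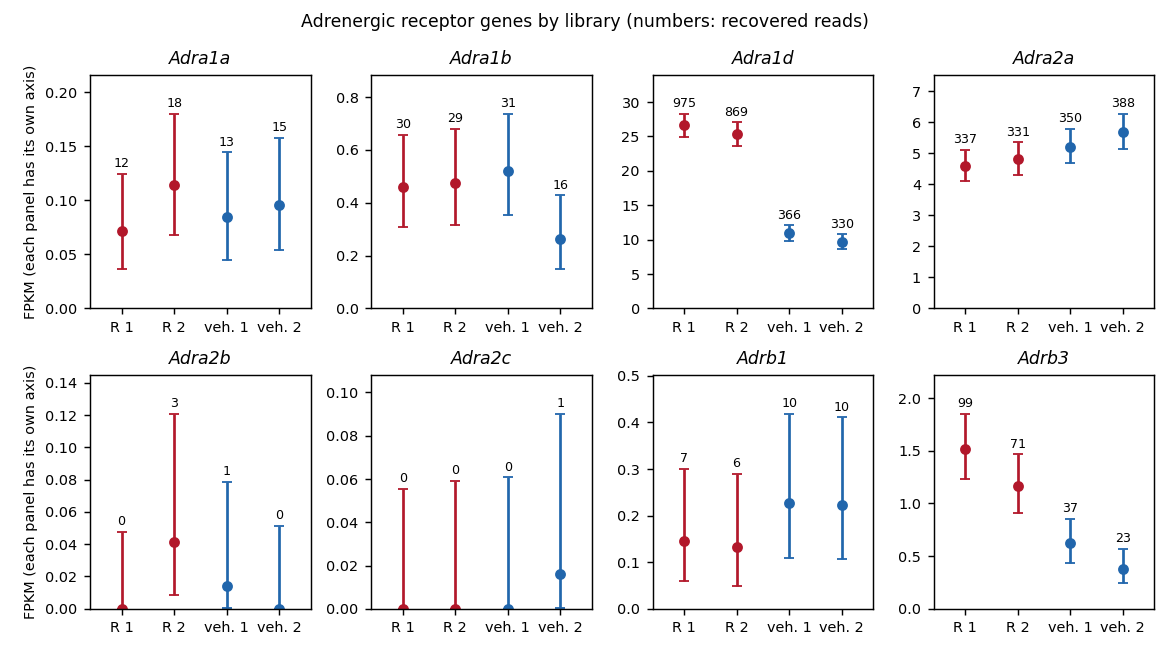
FPKM of the 8 adrenergic receptor genes in each library, R in red at the left of each panel and vehicle in blue. Bars are exact 95% Poisson intervals of the recovered reads, which are printed above each point, and each panel has its own axis from 0. Adra1d and Adrb3 stand higher in both R libraries, Adra2a and Adrb1 lower, and Adra2b and Adra2c have at most 3 reads in a library.

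Among the alpha 2 receptors only Adra2a had more than 3 reads in any library. Adra2a, the subtype that acts as an inhibitory autoreceptor on sympathetic nerve endings, lies in a single annotated exonic block on chromosome 19, positions 54044151 to 54048982 (ENSMUSG00000033717). It was at 4.59 and 4.81 FPKM in R and 5.22 and 5.69 FPKM in vehicle. Both R values lay below both vehicle values, but the gap between the groups, from 4.81 to 5.22 FPKM, was smaller than the distance of the vehicle replicates from each other, 0.469 FPKM. The means were 4.70 ± 0.155 FPKM in R, against 5.45 ± 0.331 FPKM in vehicle (SD, n = 2 each), a ratio of 0.862 and a difference of -0.18 on the log2(FPKM + 1) scale. On the TPM scale, where each library sums to the same total, the groups overlapped, at 13.8 and 16.8 TPM in R and 15.1 and 17.1 TPM in vehicle. The Adra2a values gave no whole reads at the annotated length of 4832 bases. The smallest length that did so in all 4 libraries was 3801 bases, which gives 337 and 331 reads in R and 350 and 388 in vehicle. At that length the ratio of summed reads was 0.861, with an exact 95% interval of 0.775 to 0.958.

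The other alpha 2 genes were at the floor of detection. Adra2b (ENSMUSG00000058620, chromosome 2, positions 127363208 to 127367221) had 0 and 3 reads in R and 1 and 0 reads in vehicle. Adra2c (ENSMUSG00000045318, chromosome 5, positions 35278319 to 35281763) had 0 reads in both R libraries and 0 and 1 reads in vehicle. The floor for a count of 0 was set at 3 reads, a one-sided limit, where the two-sided interval in the plot of the receptor values reaches 3.69 reads. For Adra2b 3 reads are 0.0387 FPKM in R replicate 1 and 0.0417 FPKM in vehicle replicate 2. For Adra2c they are 0.0451 and 0.0481 FPKM in R and 0.0494 FPKM in vehicle replicate 1. No fold change is given for either gene.

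Of the beta receptors, Adrb3 had higher values in R and Adrb1 lower ones. Adrb3, best known for driving fat breakdown and heat production in adipose tissue, is annotated on the minus strand of chromosome 8, positions 27225776 to 27250616 (ENSMUSG00000031489). It was at 1.52 and 1.16 FPKM in R and 0.621 and 0.380 FPKM in vehicle. Both R values were higher than both vehicle values, and only the R libraries passed 1 FPKM. The means were 1.34 ± 0.252 FPKM in R, against 0.501 ± 0.171 FPKM in vehicle (SD, n = 2 each), a ratio of 2.68. The reads were few, 99 and 71 in R and 37 and 23 in vehicle, and their ratio of 2.70 had an exact 95% interval of 1.998 to 3.68. On the log2(FPKM + 1) scale the difference of Adrb3 was 0.64, which understates a change at this low level. The antisense gene Gm45470 shares 839 exonic bases with Adrb3, and was itself at 0.0544 and 0.0725 FPKM in R and 0.0223 and 0.0219 FPKM in vehicle, so the 2 genes cannot be told apart there without strand.

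Adrb1, the receptor through which noradrenaline raises the rate and force of the heartbeat, was low throughout. It lies on chromosome 19, positions 56722199 to 56733113 (ENSMUSG00000035283), and was at 0.146 and 0.133 FPKM in R and 0.228 and 0.224 FPKM in vehicle. The groups did not overlap, with R lower. The smallest length that gave whole reads was 2491 bases, where the annotation has 3382, and it gives 7 and 6 reads in R and 10 and 10 reads in vehicle. On these few reads the ratio was 0.619 with an exact 95% interval of 0.283 to 1.31.

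The order of levels by FPKM, which is per length, was nearly the same in both groups. The order also rests on the gene lengths behind FPKM, and the values of Adra2a and Adrb1 gave no whole reads at their annotated lengths. In R it ran from Adra1d through Adra2a, Adrb3, Adra1b, Adrb1 and Adra1a to Adra2b and Adra2c. In vehicle the order was the same for Adra1d and Adra2a, while the values of Adrb3, 0.380 to 0.621 FPKM, overlapped those of Adra1b, 0.264 to 0.520 FPKM. Adrb1 lay above Adra1a in every library, although their exact counting intervals overlapped in each, and their order was not tested. Adra2b and Adra2c did not differ beyond their spread in either group. Adra1d had 5.52 times the level of Adra2a in R and 1.89 times in vehicle. It made up 79.7 and 79.0% of the summed FPKM of the 8 genes in R and 62.0 and 59.2% in vehicle. The sum itself was 33.4 and 32.0 FPKM in R and 17.6 and 16.4 FPKM in vehicle. Without Adra1d, the gene that led to the choice of the family, the other 7 summed to 6.79 and 6.74 FPKM in R and 6.69 and 6.67 FPKM in vehicle. Of all genes above 0 in any library, 91.6 and 91.9% were lower than Adra1d in R and 81.3 and 79.5% in vehicle. Only 2 of the 8 genes, Adra1d and Adra2a, reached a mean of 1 FPKM over the 4 libraries, and 5 were under 1 FPKM in every library.

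The listed receptors for other biogenic amines gave low values. None of 27 dopamine, serotonin, histamine, acetylcholine and trace amine receptor genes reached 1 FPKM in any library, and 13 were listed at 0 in all 4. Their highest value was 0.702 FPKM, of Htr1b, a serotonin receptor, in R replicate 2. Htr1b was at 0.537 and 0.702 FPKM in R and 0.336 and 0.696 FPKM in vehicle. Htr2a, another serotonin receptor, was at 0.407 and 0.562 FPKM in R and 0.637 and 0.676 FPKM in vehicle. The 27 genes summed to 1.59 and 1.89 FPKM in R and 1.61 and 2.04 FPKM in vehicle, against the 32.0 to 33.4 and 16.4 to 17.6 FPKM of the adrenergic genes.

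**Figure D2:**
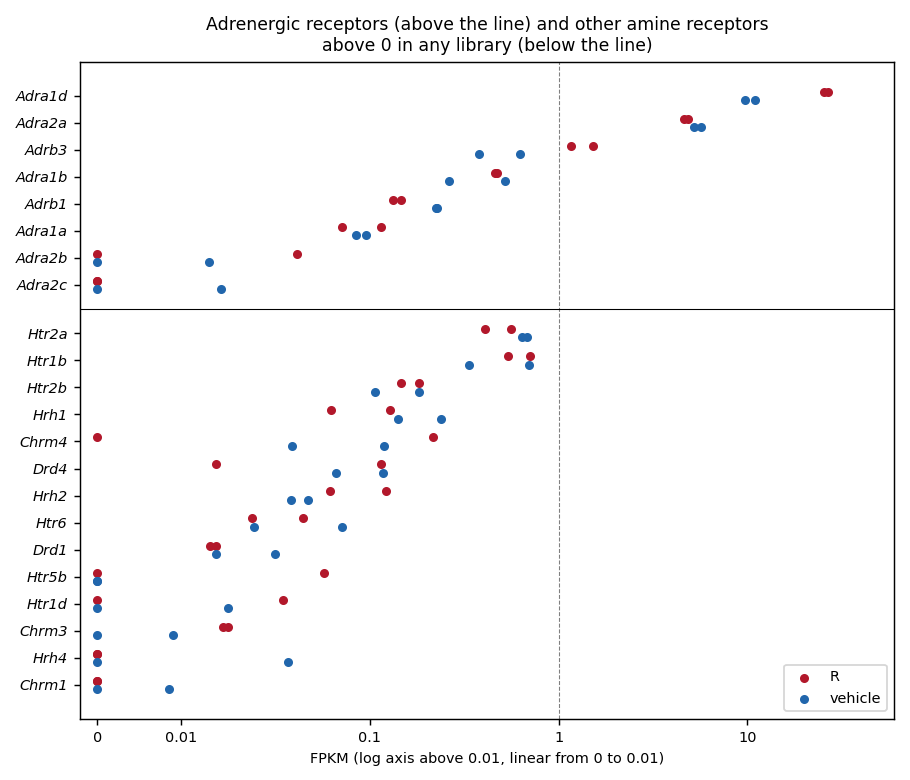
FPKM in each library of the 8 adrenergic receptor genes (above the line) and of the other biogenic amine receptors above 0 in any library (below it), each block in order of mean level, R in red and vehicle in blue. The axis is logarithmic above 0.01 FPKM and linear below. The dashed line marks 1 FPKM, which Adra1d and Adra2a pass in all 4 libraries and Adrb3 in the R libraries, and which no other receptor shown reaches.

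Across the whole table, limma on log2(FPKM + 1) called 42 genes higher and 167 lower in R among 12176 tested, at a Benjamini-Hochberg adjusted p under 0.05. This is 0.345% of genes called higher and 1.37% called lower, with a median difference of 0.00 on the log2 scale. The split was 58 higher and 124 lower on the TPM scale and 223 higher and 349 lower with a gene length trend removed. The total of 209 calls became 977 with R replicate 1 left out (312 higher and 665 lower), and 409 with vehicle replicate 2 left out (150 higher and 259 lower). With R replicate 2 left out it became 848, and more genes were then called higher than lower (438 and 410). Among all 24958 genes above 0 in a library, the groups did not overlap with R higher in 18.3% and with R lower in 19.9%. Of the 8 receptor genes, 2 did not overlap with R higher (Adra1d and Adrb3), 2 with R lower (Adra2a and Adrb1) and 4 overlapped. Since the genes were chosen with this contrast known, nothing is read from these counts.

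**Figure D3:**
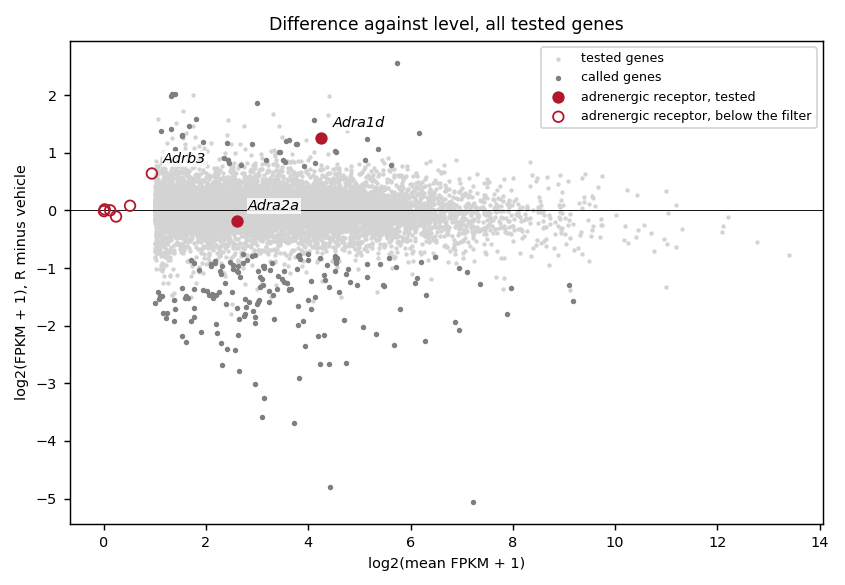
Difference between R and vehicle on the log2(FPKM + 1) scale against the mean level, for 12176 tested genes in light grey, called genes in dark grey and the adrenergic receptors in red. Filled circles are receptors above the filter of a mean of 1 FPKM and open circles are those below it. Adra1d lies at 1.25, Adrb3 at 0.64 and Adra2a at -0.18, and the other 5 lie close to 0 at low levels.

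Genes that supply, carry or end adrenergic signals, and the other amine receptors above, were examined as 7 lists of 152 genes. Of these 87 reached the filter and were tested. Limma with Benjamini-Hochberg adjustment called 0 of the 87. At an unadjusted p under 0.05 there were 8 higher and 8 lower in R, 18.4% of those tested, against 15.99% of all tested genes. The median difference of the 87 genes was 0.02 on the log2(FPKM + 1) scale, and 46 lay above 0. Voom on the recovered reads called 2, the G protein signalling regulators Rgs4 as higher and Rgs1 as lower. Leaving out R replicate 1 gave 8 calls, and leaving out R replicate 2 or vehicle replicate 2 gave 2 each. Removing the gene length trend gave 4, Rgs1, Rgs4, Adcy6 and Itpr3. Of the genes named next, Rgs1, Adcy6, Pde1b and Arrb2 passed with R replicate 1 left out, Rgs1 with R replicate 2 left out, and Gnas and Rgs4 with vehicle replicate 2 left out.

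The G proteins and enzymes next to the receptors were present. Gnaq, a Gq class subunit used by alpha 1 receptors, was at 16.3 and 24.1 FPKM in R and 19.8 and 19.4 FPKM in vehicle. Gna11, the other widespread Gq class subunit, was at 24.1 and 24.8 FPKM in R and 18.9 and 19.1 FPKM in vehicle. The groups did not overlap for Gna11, which missed the threshold (limma, Benjamini-Hochberg adjusted p = 0.232). Gnai2, a Gi subunit used by alpha 2 receptors, was at 304 and 238 FPKM in R and 289 and 283 FPKM in vehicle. Of 10 tested alpha subunit genes, with a median difference of 0.09, the smallest p was that of Gnas, which encodes Gs, at 5.82 and 6.71 FPKM in R and 2.69 and 3.97 FPKM in vehicle (limma, Benjamini-Hochberg adjusted p = 0.119). The Gnas locus makes overlapping sense and antisense transcripts, so its value is uncertain. Among 24 tested effector genes, with a median difference of 0.12, the smallest p was that of Adcy6, an adenylyl cyclase that makes cyclic AMP. Adcy6 was at 11.4 and 14.3 FPKM in R and 7.02 and 8.10 FPKM in vehicle and missed the threshold (limma, Benjamini-Hochberg adjusted p = 0.104). Plcb3, a phospholipase C activated by Gq, was at 27.2 and 28.1 FPKM in R and 26.6 and 25.1 FPKM in vehicle.

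Genes that end the signal gave values on both sides. Of 23 tested genes of receptor desensitisation, 12 lay above 0 and the median difference was 0.00. Rgs1, which speeds up the shutdown of G proteins in leukocytes, had the smallest p, at 25.7 and 25.1 FPKM in R and 41.6 and 40.4 FPKM in vehicle (limma, Benjamini-Hochberg adjusted p = 0.0569). Rgs4, a regulator of the same family, was at 3.53 and 3.19 FPKM in R and 1.30 and 1.71 FPKM in vehicle (limma, Benjamini-Hochberg adjusted p = 0.071). Grk2, a kinase that marks active receptors for uptake, was at 61.0 and 53.9 FPKM in R and 72.5 and 65.6 FPKM in vehicle. Arrb2, which binds marked receptors, was at 96.0 and 63.3 FPKM in R and 100.4 and 91.6 FPKM in vehicle. Among 7 tested phosphodiesterases, which break down cyclic nucleotides and had a median difference of -0.04, Pde1b had the smallest p, at 9.30 and 6.94 FPKM in R and 13.1 and 11.1 FPKM in vehicle (limma, Benjamini-Hochberg adjusted p = 0.214).

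Of the genes for catecholamine supply, Th, Dbh and Pnmt, which encode synthesis enzymes, were listed at 0 in all 4 libraries. Maoa, which encodes a breakdown enzyme, was at 22.0 and 21.2 FPKM in R and 17.9 and 17.8 FPKM in vehicle and missed the threshold (limma, Benjamini-Hochberg adjusted p = 0.346). Of the 5 tested genes of this list, with a median difference of -0.09, the smallest p was that of Gch1, which makes the cofactor of tyrosine hydroxylase, at 0.928 and 0.787 FPKM in R and 1.64 and 1.52 FPKM in vehicle (limma, Benjamini-Hochberg adjusted p = 0.213). Among 18 tested genes that respond to cyclic AMP or calcium, 6 lay above 0 and the median difference was -0.10. Ptgs2, an inducible enzyme of prostaglandin synthesis, had the smallest p, at 2.31 and 2.97 FPKM in R and 3.82 and 5.27 FPKM in vehicle (limma, Benjamini-Hochberg adjusted p = 0.193).

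**Figure D4:**
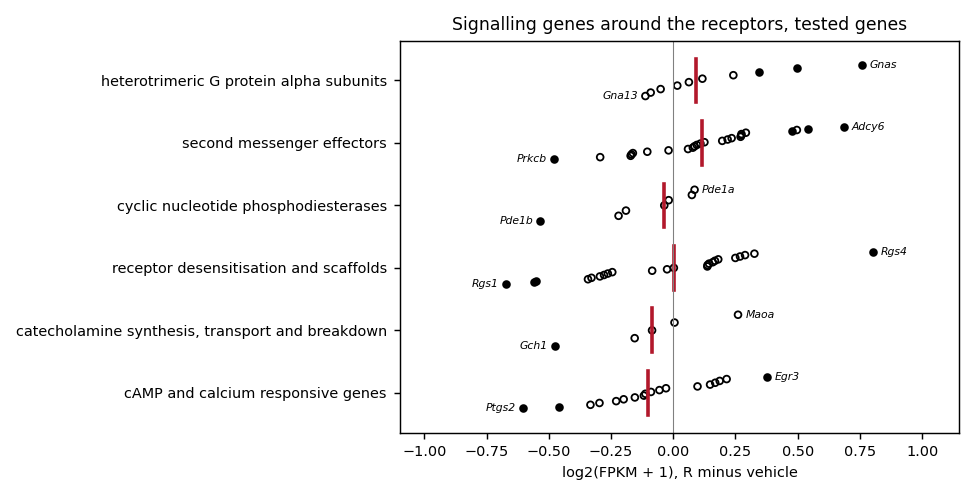
Difference between R and vehicle on the log2(FPKM + 1) scale of the 87 tested signalling genes, 1 circle per gene and 1 row per list. Filled circles have an unadjusted p under 0.05, red bars are list medians, and the lowest and highest gene of each list is named. The medians lie between -0.10 and 0.12 and the single genes between -0.67 for Rgs1 and 0.80 for Rgs4, and none passes the adjusted threshold.

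The profile of Adra1d over the 4 libraries was set against 10934 other tested protein-coding genes. Likeness was the Euclidean distance between log2(FPKM + 1) values centred on each gene's mean. The closest was Cox11, a mitochondrial assembly factor of cytochrome c oxidase, at a distance of 0.0783, with 4.44 and 4.20 FPKM in R and 1.51 and 1.17 FPKM in vehicle. Next came Omd, a bone proteoglycan, at a distance of 0.115, with 6.41 and 6.39 FPKM in R and 2.34 and 2.21 FPKM in vehicle. Col2a1, a cartilage collagen, followed at a distance of 0.200, with 57.8 and 51.3 FPKM in R and 26.6 and 24.3 FPKM in vehicle. Aspn, a small proteoglycan of cartilage and ligament, was at a distance of 0.213, with 16.8 and 18.9 FPKM in R and 8.36 and 6.63 FPKM in vehicle. Dio3, which inactivates thyroid hormone, was at a distance of 0.231, with 18.4 and 14.1 FPKM in R and 7.18 and 5.60 FPKM in vehicle. In all 5, both R values lay above both vehicle values. With 4 libraries in 2 groups, likeness to Adra1d largely means the same step between groups, and it uses the contrast by which Adra1d was chosen.

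The genes beside Adra1d on chromosome 2 had differences of 0.02 to 0.28 on the log2(FPKM + 1) scale, and limma called none of those tested. Smox, a polyamine oxidase gene 19.9 kb away, averaged 15.2 FPKM in R and 14.9 FPKM in vehicle, a difference of 0.02 with SE 0.147 (limma, Benjamini-Hochberg adjusted p = 0.967). Rnf24 and Pank2, 193 and 247 kb away on the same side, had differences of 0.05 and 0.05 (limma, Benjamini-Hochberg adjusted p = 0.930 for Rnf24 and 0.874 for Pank2). On the other side Erv3, and Prn, whose annotated span covers that of Prnp in large part, were listed at 0 in every library. Prnp, the prion protein gene 348 kb away, was at 70.4 and 69.3 FPKM in R and 58.4 and 56.3 FPKM in vehicle, a difference of 0.28 (limma, Benjamini-Hochberg adjusted p = 0.345). Of these 4 measured neighbours, only Prnp had groups that did not overlap.

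**Figure D5:**
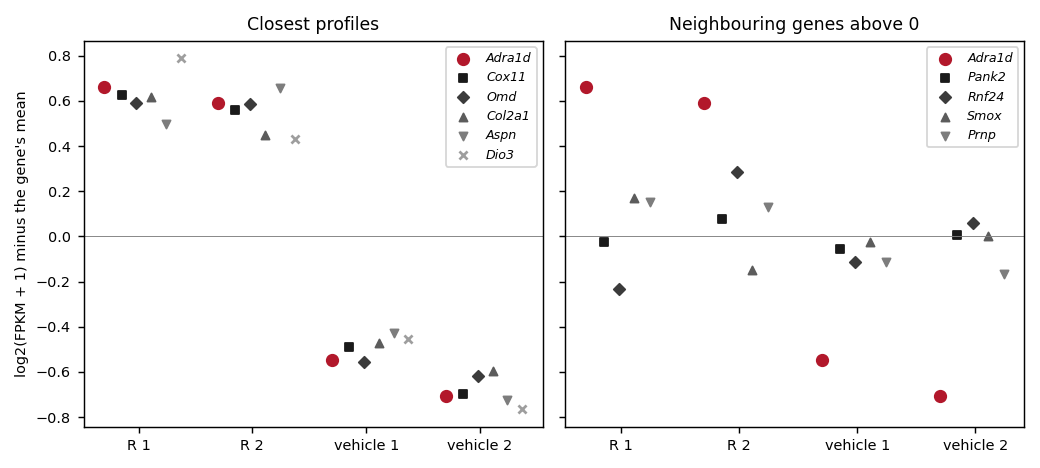
Values on the log2(FPKM + 1) scale, centred on each gene's mean, in the R libraries (left of each panel) and the vehicle libraries. The left panel shows Adra1d in red with the 5 genes of closest profile, and the right panel shows it with the 4 neighbouring genes above 0. The closest profiles share the step between R and vehicle, and the neighbours have differences of 0.02 to 0.28 against 1.25 for Adra1d.

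Marker lists of other cell types were summed in the same libraries. The summed level of the 15 macrophage markers was 12150 and 9807 FPKM in R and 19506 and 17085 FPKM in vehicle. Lyz2 alone made up 8891 and 7061 FPKM of these sums in R and 14569 and 12540 FPKM in vehicle. Limma with Benjamini-Hochberg adjustment called 3 of the 15 markers, all lower in R. On the log2(FPKM + 1) scale 14 differences lay below 0. Cx3cr1 lay above it, at 11.2 and 11.5 FPKM in R and 10.4 and 8.59 FPKM in vehicle. The 7 chondrocyte markers summed to 81.1 and 76.3 FPKM in R and 44.1 and 40.1 FPKM in vehicle. Col2a1 alone made up 57.8 and 51.3 FPKM of these sums in R and 26.6 and 24.3 FPKM in vehicle. Of the 7 chondrocyte markers 4 were tested and 1, Col2a1, was called higher. All 4 lay above 0, and 3 had an unadjusted p under 0.05. The 12 markers of smooth muscle and pericytes, cells in which alpha 1 receptors are known to act, summed to 1690 and 1254 FPKM in R and 1159 and 1080 FPKM in vehicle. Acta2 alone made up 1574 and 1158 FPKM of these sums in R and 1090 and 1013 FPKM in vehicle, and was not called (limma, Benjamini-Hochberg adjusted p = 0.518). Limma called 0 of 9 tested, and 4 had an unadjusted p under 0.05, all higher. The 8 adipocyte markers, of the cell type known for Adrb3, summed to 208 and 193 FPKM in R and 142 and 149 FPKM in vehicle. Cebpa alone made up 122 and 108 FPKM of these sums in R and 71.6 and 68.1 FPKM in vehicle. Limma called 0 of 5 tested, and 2 had an unadjusted p under 0.05. Of the 5 tested 4 lay above 0, while Fabp4 lay below it, at 5.76 and 4.10 FPKM in R and 5.54 and 5.66 FPKM in vehicle. The part of these lists in the values of Adra1d and Adrb3 was not tested. The sums of the mesenchymal list were 2238 and 2327 FPKM in R and 1792 and 1787 FPKM in vehicle. Col1a1 made up 852 and 795 FPKM of these sums in R and 532 and 526 FPKM in vehicle. Col1a2 made up 414 and 434 FPKM in R and 282 and 291 FPKM in vehicle. Cxcl12 overlapped, at 462 and 514 FPKM in R and 517 and 493 FPKM in vehicle. Limma called 0 of 16 tested mesenchymal markers, and 6 had an unadjusted p under 0.05, all higher. Of the 16, 13 lay above 0 and 3 below. Neuron and Schwann cell markers summed to 13.9 and 12.6 FPKM in R and 16.3 and 13.9 FPKM in vehicle, with 6 of 10 markers under 0.1 FPKM. Endothelial markers summed to 5.20 and 7.15 FPKM in R and 6.42 and 6.54 FPKM in vehicle, and T, B and NK cell markers to 6.35 and 6.57 FPKM in R and 8.27 and 8.49 FPKM in vehicle, with 4 of 7 lymphocyte markers listed at 0. Osteoblast markers summed to 1078 and 957 FPKM in R and 1518 and 1453 FPKM in vehicle, of which Spp1, which macrophages also express, made up 1049 and 930 FPKM in R and 1488 and 1420 FPKM in vehicle. Of the 5 tested osteoblast markers 2 lay above 0 and 3 below, with a median difference of -0.02. Sp7, a transcription factor of bone formation, was at 4.498 and 4.25 FPKM in R and 3.74 and 3.54 FPKM in vehicle. Ibsp lay the other way, at 1.18 and 2.49 FPKM in R and 6.20 and 8.89 FPKM in vehicle (limma, Benjamini-Hochberg adjusted p = 0.0532). Neutrophil and erythroid markers summed to 0.489 and 0.361 FPKM in R and 0 and 0.329 FPKM in vehicle.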

How the data were processed

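RNA sequencing of 2 R and 2 vehicle libraries of cultured mouse bone marrow cells was analysed. The deposited table holds FPKM per gene and library, per the file headers. Another 10 columns hold no values. The builds GRCm38 and mm10 and edgeR 3.18.1, in a role not stated, are named per the submitters' processing notes. The aligner, counting, strand use and annotation were not given in the sources used here. GENCODE M21 gave symbols, coordinates and exonic lengths for 54495 of 54532 genes. FPKM times exonic length and library size gave whole reads, within 0.02, for 96.3 to 96.4% of values above 0. The values that gave whole reads held 16570419 to 18140519 reads per library. The library sizes that scale FPKM to whole reads were 17638814 to 19298992, so that 1 FPKM in a gene of 2 kb is 35.3 to 38.6 reads.

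Genes whose mean reached 1 FPKM were tested on log2(FPKM + 1) in limma 3.58.1 (in the R language 4.3.3; eBayes with trend, no further terms, Benjamini-Hochberg over 12176 genes, adjusted p under 0.05). The scripts were tested on simulated data. Intervals of reads are exact Poisson or binomial at 95%.

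The 8 receptor genes, the 7 signalling lists and the 10 marker lists were chosen with earlier results of these data known. Named genes are the 8 receptors, called list genes or else the tested member with the smallest p, the leading marker of a list, the 5 closest profiles to Adra1d and its 3 nearest protein-coding genes on each side. Other signalling and marker genes were named after their values were seen. Another adrenergic receptor gene is not reported here. The alternatives were other pseudocounts, filters and scalings, voom, a replicate block and each library left out.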

Additional observations from a re-analysis of the deposited data

How the results depend on the processing

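Both R values of Adra1d lay above both vehicle values, so no left-out library, pseudocount or filter could reverse its difference. The difference of Adra1d kept its direction in every alternative that was run, an outcome largely fixed in advance. It was 1.25 on the log2(FPKM + 1) scale and 1.44 on the TPM scale, which moved the median of all tested genes to 0.13, and 1.18 to 1.33 with 1 library left out. Of 209 genes called by limma, the count was 123 with a filter at a mean of 0.1 FPKM and 0 of 24958 without a filter, with 2767 at an unadjusted p under 0.05. It was 318 with voom, 572 with the gene length trend removed and 289 to 977 with 1 library left out. Replicate numbers come only from the titles, and same-numbered libraries deviated from their group means with a correlation of 0.353. With 2 pairs, neither the labels nor this value settles whether the numbers pair the libraries. With a replicate block 1900 genes were called, 891 higher and 1009 lower. Of these 15 were on the signalling lists, among them Gnas, Adcy6, Rgs1, Rgs4, Pde1b, Gch1 and Ptgs2. The block leaves the difference of Adra1d at 1.25 by construction, since each replicate number occurs once in each group. Adra1a changed sign within its spread, from -0.03 to 0.03, with 1 library left out, and Adra1b ran from -0.05 to 0.22. The log2 difference of Adrb3 was 0.64 with a pseudocount of 1 and 1.28 with a pseudocount of 0.1. Quantile normalization gave 247 calls. Precision is limited by 2 libraries per group, and below about 30 reads per library by counting error.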
